A study of Mus musculus with 2 samples.

Results

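Posterior presomitic mesoderm cells were described here in 2 single-cell RNA libraries, replicates 1 and 2, of caudal tissue of mouse embryos (strain C57BL/6J, wild type) collected at embryonic day 8.5. Members were chosen by their UMI counts of 6 genes, as barcodes with at least 4 unique molecular identifiers (UMIs, counted molecules) of Msgn1 and Tbx6 together, at most 1 of Nkx1-2 and Hes3, and at most 1 of Mesp2 and Ripply2. They were taken from kept barcodes, which had 2000 UMIs or more, 1000 detected genes or more and 0.3% to 10% mitochondrial UMIs. Replicate 1 held 1206 members among 11228 kept barcodes (10.7%, exact Clopper-Pearson 95% interval 10.2% to 11.3%), and replicate 2 held 892 among 8322 (10.7%, interval 10.1% to 11.4%), which gave 2098 of 19550 in all. The libraries carry no treatment, reporter allele or deletion in their labels, and tissue of several embryos was pooled before dissociation. Whether each library had its own pool of embryos is not stated in the labels. Differences between the libraries may be technical or come from different embryos, which was not tested. Xist, the RNA of the inactive X chromosome, differed strongly between them, as given further on, and the source was not tested. Each standard error (SE) and p-value below uses a spread shared over genes. An SE can therefore be smaller than a gene's own difference between the libraries. The members were compared with the 10022 and 7430 other kept barcodes, and with 3 neighbouring gates along the body axis, drawn on the same genes and on Tcf15 and Meox1. The caudal epiblast gate behind them had at least 4 UMIs of Nkx1-2 and Hes3 (1920 and 833 barcodes). It had at most 1 of Msgn1 and Tbx6 and at most 1 of Mesp2 and Ripply2, with no limit on Tcf15 and Meox1. The anterior presomitic mesoderm gate in front had at least 2 UMIs of Mesp2 and Ripply2 and at most 1 of Nkx1-2 and Hes3, with no limit on Msgn1 and Tbx6 (155 and 152 barcodes). The somite gate had at least 4 UMIs of Tcf15 and Meox1, with at least 1 of each and at most 1 of each other pair (522 and 472 barcodes).

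Presomitic mesoderm is the unsegmented paraxial mesoderm that leaves the caudal epiblast and primitive streak and later divides at its anterior end into somites, the precursors of vertebrae, skeletal muscle and dermis. Its posterior part is known to be kept unsegmented by Wnt and FGF ligands made at the tail end, while retinoic acid made in somites acts from the front. A segmentation clock, built on Notch signalling and its oscillating targets Hes7, Lfng and Nrarp, sets the timing of the segments, and Msgn1 and Tbx6 are transcription factors needed for the posterior state.

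The 250 bases before the RefSeq start site (GRCm38.p6) are shown for Msgn1, whose UMIs chose the members, and for the clock genes Hes7, Lfng and Nrarp, whose levels in the members are given further on. Msgn1 lies at chr12:11208949-11209198 on the minus strand, Hes7 at chr11:69120203-69120452, Lfng at chr5:140607091-140607340 and Nrarp at chr2:25180508-25180757, each on the plus strand. Capitals mark matches, on either strand, to TGGGAA (the core of the motif of Rbpj, the DNA-binding partner of Notch), CACGTG (an E-box of the kind bound by Hes factors) or CTTTGAT (the Tcf/Lef motif of Wnt signalling).
Msgn1: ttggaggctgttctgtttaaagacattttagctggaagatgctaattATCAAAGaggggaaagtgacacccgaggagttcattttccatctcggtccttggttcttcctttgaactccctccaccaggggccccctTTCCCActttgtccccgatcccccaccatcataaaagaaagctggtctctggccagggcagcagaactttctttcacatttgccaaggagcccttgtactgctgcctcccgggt
Hes7: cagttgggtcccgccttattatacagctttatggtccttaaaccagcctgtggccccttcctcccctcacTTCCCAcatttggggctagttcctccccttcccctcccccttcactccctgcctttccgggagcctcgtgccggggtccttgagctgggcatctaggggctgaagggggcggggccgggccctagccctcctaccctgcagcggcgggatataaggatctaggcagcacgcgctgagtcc
Lfng: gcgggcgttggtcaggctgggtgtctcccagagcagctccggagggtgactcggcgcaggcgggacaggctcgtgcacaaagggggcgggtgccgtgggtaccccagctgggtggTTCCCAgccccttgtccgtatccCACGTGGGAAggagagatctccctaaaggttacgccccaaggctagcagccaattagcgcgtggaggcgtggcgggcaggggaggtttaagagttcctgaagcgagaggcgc
Nrarp: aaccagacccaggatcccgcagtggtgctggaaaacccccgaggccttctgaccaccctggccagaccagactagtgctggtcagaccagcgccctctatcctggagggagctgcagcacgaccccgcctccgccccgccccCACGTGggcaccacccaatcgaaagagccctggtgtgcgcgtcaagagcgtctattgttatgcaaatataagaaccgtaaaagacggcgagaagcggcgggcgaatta
The capitals in Msgn1 are a Tcf/Lef match, 203 bases before the start, and an Rbpj match, 114 bases before it. Hes7 holds an Rbpj match 180 bases before the start. Lfng holds an Rbpj match 135 bases before its start and, in a single run of capitals, an E-box match (112 bases before) that overlaps a second Rbpj match (108 bases before). Nrarp holds an E-box match 108 bases before its start. Among 32851 promoter windows of the same length, TGGGAA was present in 21.6%, CACGTG in 6.02% and CTTTGAT in 3.21%, so the Rbpj letters are common. The T-box letters TCACACCT, present in 1.12% of windows, were in none of these 4 windows. The windows of Tbx6, Dll1, Dll3, Cited1, Pcdh19, Fgf3, Snai1, Cyp26a1 and T held none of the letters, so only the 4 shown had a match. TGGGAA was in 25.3% of windows of genes called at least 2-fold higher in members than in other barcodes, against 20.7% for all tested genes. In the same order CACGTG was in 6.25% and 8.04%, CTTTGAT in 3.57% and 2.335%, and TCACACCT in 1.19% and 0.789%. These shares were not tested. A match describes letters only, and 13 of 15 genes looked up had a window (Rspo3 and Mixl1 are named only).

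The deposited matrices held 30449 and 18245 barcodes. Kept members had a median of 15957 UMIs in replicate 1 and 13997.5 in replicate 2, against 18163 and 13656 in the other kept barcodes. Their UMIs summed to about 21327000 and 13315900. The lower mitochondrial limit set aside 1237 and 369 barcodes that met the marker gate, with medians of 7540 and 5406 UMIs. In all, 761 cell barcodes occurred in both libraries, but no member barcode was a member in both. Scrublet, a doublet caller, marked 146 (12.1%) and 42 (4.71%) of the members, against 8.75% and 2.89% of the other kept barcodes. Over all scored barcodes, those under the mitochondrial limit included, it marked 6.70% and 1.95%, under its expected 24.4% and 14.6%, and the marked members were kept.

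The gate genes set the members apart by construction, so their levels are a description without a test. Levels are CPM, the UMIs of a gene summed over the cells of a class and scaled to the class total, and paired values are replicate 1 and then replicate 2. Msgn1 stood at 377 and 414 CPM in members, against 14.0 and 8.23 CPM in other barcodes, and Tbx6 at 242 and 261 CPM, against 16.8 and 13.6 CPM. Nkx1-2, a caudal epiblast homeobox gene, stood at 8.91 and 5.11 CPM in members and 80.2 and 49.9 CPM in others. Mesp2, a segment gene, stood at 3.52 and 4.88 CPM in members and 441 and 293 CPM in the anterior gate. Ripply2, another, stood at 0.703 and 0.751 CPM in members and 208 and 227 CPM in the anterior gate. A member carried a median of 9 and 8.5 Msgn1 and Tbx6 UMIs, with the 10th percentile at 4 and the 90th at 20 and 18. Msgn1 was not detected in 39 and 44 members, and Tbx6 in 76 and 34. Of the kept barcodes with at least 4 such UMIs, 1530 and 1002 in number, 266 and 77 were over the limit on Nkx1-2 and Hes3, 68 and 33 over that on Mesp2 and Ripply2, and 10 and 0 over both.

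**Figure D1:**
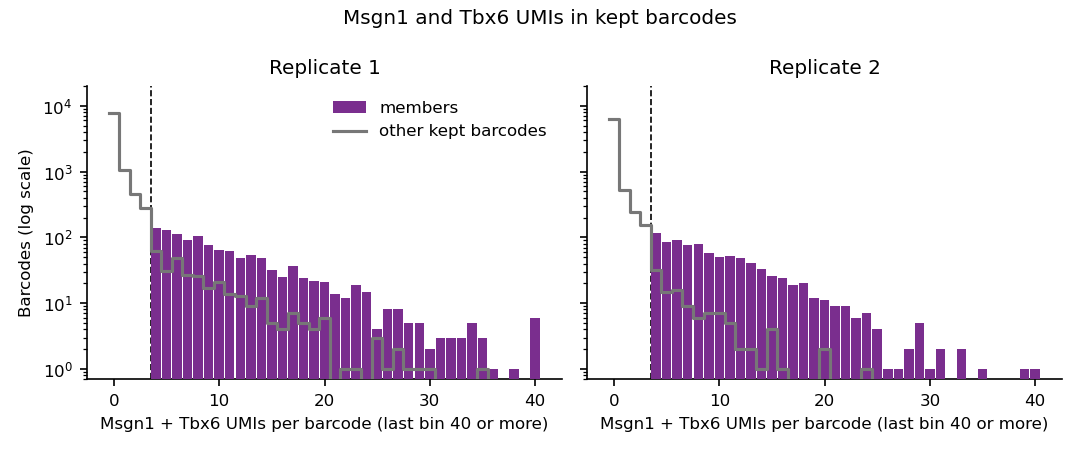
Barcodes (log scale) by their Msgn1 and Tbx6 UMIs in each library, with members as bars, other kept barcodes as a line and the threshold of 4 as a dashed line; the last bin holds 40 or more. Member numbers decline from 140 and 116 barcodes at 4 UMIs.

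The 140 and 116 members at exactly 4 UMIs had Dll1 at 172 and 191 CPM. The 179 and 120 barcodes just outside at 3 UMIs had it at 124 and 193 CPM. Dll3 stood at 218 and 306 CPM just inside and 142 and 276 CPM just outside. At the anterior limit, the 90 and 75 members with 1 Mesp2 or Ripply2 UMI had Pcdh8, a protocadherin of the segment boundary, at 5.80 and 29.2 CPM, and the 16 and 14 barcodes with 2 UMIs at 7.14 and 68.5 CPM.

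The gate did not use Dll1 and Dll3, the other markers of the label. Dll1 and Dll3, Notch ligands of the presomitic mesoderm, were high in both libraries. Dll1 stood at 374 and 352 CPM in members, against 33.6 and 31.2 CPM in other barcodes, a log2 fold change of 3.52 ± 0.058 (SE) with an adjusted p of 2.09e-15 by edgeR's quasi-likelihood test with Benjamini-Hochberg adjustment, which is the test of every adjusted p below. Dll3 stood at 393 and 493 CPM in members, against 53.5 and 53.4 CPM in others (3.07 ± 0.075, adjusted p 3.84e-13). After thinning each cell to 8000 UMIs, which left out 103 and 65 shallower members, Dll1 was detected in 79.1% and 81.5% of members, against 2.89% and 2.25% of endothelial gate barcodes, which should lack it. Dll3 was detected in 82.0% and 84.8% of members and 4.50% and 2.25% of endothelial barcodes. The endothelial gate had at least 4 UMIs of Cdh5, Pecam1 and Tie1 and at most 1 of Msgn1 and Tbx6 (318 and 200 barcodes). Scrublet marked 19.2% and 5.50% of these barcodes, so their shares may include doublets. In the anterior gate Dll1 was detected in 88.5% and 79.2% of barcodes and Dll3 in 92.1% and 92.4%. The pair therefore does not tell posterior from anterior presomitic mesoderm. Before thinning the median depth was 15957 and 13997.5 UMIs in members and 23903 and 15466 in endothelial barcodes. The exact intervals for Dll1 in members ran from 76.6% to 81.5% and from 78.7% to 84.1%, and cover counting error only. Neither marker reached every member, since 163 and 109 members had no Dll1 UMI before thinning and 138 and 105 no Dll3 UMI.

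Against all other kept barcodes, members had more RNA of the Notch ligands Dll1 and Dll3 and of 6 of 9 FGF ligands, and less of neural, endodermal, ectodermal and vascular genes. Of 15893 genes tested, 1365 (8.59%) were higher and 2472 (15.6%) lower at an adjusted p under 0.05, and 344 and 1296 of these changed at least 2-fold, with a median log2 fold change over all genes of -0.00098. In this and the following comparisons the genes with the largest changes are named. They were taken among those with at least 20 CPM in both libraries of the higher class and the same direction in both. That such genes keep their direction, or do not overlap between classes, follows in part from this choice. Besides the label markers, the largest increases were in Fgf3, an FGF ligand, and S1pr3, a receptor for sphingosine-1-phosphate. Fgf3 stood at 64.5 and 59.3 CPM in members and 7.97 and 4.23 CPM in others (3.40 ± 0.14). S1pr3 stood at 23.7 and 57.8 CPM in members and 2.96 and 5.89 CPM in others (3.18 ± 0.11). Both genes were higher in members in each library. Mixl1, a homeobox gene of the primitive streak, stood at 30.6 and 25.2 CPM in members, against 5.76 and 3.04 CPM in others (2.72 ± 0.14). Rspo3, a secreted protein that raises Wnt signalling, reached 384 and 440.3 CPM in members, against 79.0 and 75.3 CPM in others (2.45 ± 0.067), and was detected in 85.6% and 91.3% of thinned members and 24.1% and 23.6% of endothelial barcodes. The other genes among the 10 largest increases were Rftn1, a lipid raft protein (2.67), Pcdh19, a protocadherin (2.56), Arl4d, a small GTPase (2.49), and Btg2, an antiproliferative gene (2.34). The weakest adjusted p of these 10 genes was 5.85e-08, for Btg2, whose members' level was 33.4 and 121 CPM, so the libraries differ in its amount while both lie above the others' 10.2 and 16.6 CPM.

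The 10 largest decreases included genes known from gut, neural and vascular tissue. Nepn, known from the gut endoderm, stood at 11.8 and 1.5 CPM in members and 50.9 and 22.5 CPM in others (-2.50 ± 0.20). Sox3, a transcription factor of neural progenitors, stood at 6.89 and 9.99 CPM in members and 33.1 and 48.8 CPM in others (-2.24 ± 0.091), and Kdr, the VEGF receptor of endothelium, at 11.7 and 11.9 CPM in members and 47.3 and 53.1 CPM in others (-2.05 ± 0.083). These 3 genes were lower in members in both libraries. Fgfr2, an FGF receptor known from epithelia, fell to 10.1 and 6.53 CPM in members, against 38.8 and 33.0 CPM in others (-2.07 ± 0.10). The remaining 6 were Hapln1, a hyaluronan link protein (-2.24), Lrp2, an endocytic receptor (-2.22), Cldn4, a tight junction claudin (-2.18), Plvap, an endothelial membrane protein (-2.11), Cxcl12, a chemokine (-2.07), and Ahnak, a scaffold protein (-2.06). Each of the 10 had an adjusted p of at most 9.87e-08.

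Most markers of other cell types were called lower in the members than in other barcodes. All 8 endoderm, 7 surface ectoderm, 8 lateral plate and 7 endothelium markers tested were called lower, as were 8 of 11 neural markers, with medians of -1.86, -1.85, -1.30, -2.05 and -1.75. The sums stayed above 0 for each of these types. Summed neural markers made up 41.7 and 62.3 CPM in members, against 126 and 166 CPM in others, and summed endothelium markers 36.9 and 42.9 CPM, against 114 and 129 CPM. Summed endoderm markers made up 188 and 60.8 CPM in members, against 637 and 299 CPM, surface ectoderm markers 348 and 150 CPM, against 1200 and 634 CPM, and lateral plate markers 211 and 140 CPM, against 367 and 346 CPM. Sox2, a neural progenitor factor, was detected in 1.63% and 0.726% of thinned members, and in 1.93% and 1.69% of endothelial barcodes, which is the background level. Osr1 was the exception among 5 intermediate mesoderm markers: this zinc finger gene of kidney and limb mesoderm was called higher, at 102 and 50.1 CPM in members and 38.8 and 32.1 CPM in others (1.08 ± 0.11), while Pax2, Pax8, Lhx1 and Wt1 were called lower. With Osr1, the summed intermediate mesoderm markers made up 116 and 61.8 CPM in members, against 63.6 and 62.8 CPM in others. Summed extraembryonic endoderm markers made up 123 and 43.9 CPM in members, against 567 and 35.0 CPM in others, so they were higher in members in replicate 2, and 3 of 4 were called lower. Blood markers differed between the libraries: in replicate 1 their sum was 9.61 CPM in members, with Hbb-bh1, Hbb-y and Gata1 at 0, against 6.77 CPM in others, while in replicate 2 it was 2033 CPM, against 8512 CPM in others, with 13 members (1.46%) at 4 or more such UMIs. The part of these transcripts in the member results was not tested. Fewer cells of a type and less RNA per cell cannot be told apart in summed counts.

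The counts depended on the model. The main test kept library as a term, which left 1 residual degree of freedom for 4 sums, and borrowed its spread from all genes. With library taken out of the model, 14 genes were higher and 2 lower than in other barcodes, and DESeq2 called 699 higher and 1175 lower. Among the genes called with the library term, 40 differed in sign between the libraries. Of the genes named here, Dll1, Dll3, Kdr, Pcdh19, Rftn1 and Rspo3 were also called without it.

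The neighbours along the axis were compared in a single fit of 13249 genes. The 3 comparisons share the members' summed counts, so they are not independent of each other. Against the caudal epiblast gate 920 genes (6.94%) were higher and 1050 (7.93%) lower in members. Against the anterior gate 171 (1.29%) were higher and 201 (1.52%) lower, and against the somite gate 789 (5.96%) higher and 859 (6.48%) lower. The anterior gate held only 2736200 and 2515580 UMIs, the smallest sum of the 4. Median log2 fold changes over all genes were 0.012, 0.010 and 0.0070 in that order. Without library in the model the calls were 123 higher and 105 lower against the caudal epiblast gate, 4 and 21 against the anterior gate, and 137 and 154 against the somite gate. With no filter on low counts, the anterior comparison gave 518 higher and 377 lower. Of the genes named with a fold change below and called, 23 of 46 against caudal epiblast, 5 of 34 against the anterior gate and 11 of 13 against somites were also called without the library term.

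Relative to caudal epiblast, the members had more of mesodermal signalling and adhesion genes and less of neural plate genes. The 5 largest increases were S1pr3, Dll1, Pcdh19, Mixl1 and Inka1, an inhibitor of Pak4 kinase. Pcdh19 stood at 133 and 109 CPM in members, against 5.24 and 2.88 CPM in caudal epiblast (4.75 ± 0.22), and Dll1 at 374 and 352 CPM in members and 13.8 and 13 CPM in caudal epiblast (4.75 ± 0.19). S1pr3 gave a log2 fold change of 5.38 ± 0.29, Mixl1 of 4.28 ± 0.28 and Inka1 of 4.17 ± 0.18. For all 5, chosen for their large changes, the lower member library lay above the higher caudal epiblast library. The 5 largest decreases were Zic5, a zinc finger gene of the neural plate (-4.21 ± 0.15), Fgfbp3, an FGF binding protein (-4.09 ± 0.43), Sox2 (-4.03 ± 0.24), Sox3 (-3.86 ± 0.14) and Pmaip1, a p53 target that promotes apoptosis (-3.45 ± 0.25). Sox3 stood at 6.89 and 9.99 CPM in members, against 89.0 and 168 CPM in caudal epiblast, where it was far higher in each library. Of the 10 neural markers tested here, 8 were called lower and none higher, with a median of -2.50. The caudal epiblast gate was drawn on Nkx1-2 and Hes3, which were limited in the members. Genes expressed with these are therefore not independent of the gates. The weakest adjusted p of the 10 named genes was 4.31e-04, for Fgfbp3. Of 6 blood markers, 3 were called higher than in caudal epiblast, and the part of blood transcripts in this comparison was not tested.

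Relative to the anterior gate, members had more of tail-end genes and less of the genes of the forming boundary. The 5 largest increases were Mixl1 (3.25 ± 0.40), the FGF ligand Fgf17 (2.94 ± 0.41), Evx1os, an RNA antisense to Evx1 (2.82 ± 0.18), the peptide hormone gene Sct (2.80 ± 0.31) and Cyp26a1, which breaks down retinoic acid (2.79 ± 0.31). Fgf17 stood at 73.1 and 117 CPM in members, against 16.1 and 7.55 CPM in the anterior gate. Reads of Evx1os and Evx1 may not be separable, since no source states strand use in the counting. The 5 largest decreases were Pcdh8 (-5.53 ± 0.14), the segment transcription factor Mesp1 (-4.84 ± 0.28), Cer1, a secreted Nodal and BMP inhibitor (-4.82 ± 0.16), the FGF ligand Fgf18 (-3.70 ± 0.38) and the zinc finger gene Zic2 (-3.27 ± 0.091). Pcdh8 stood at 5.44 and 5.71 CPM in members, against 280.3 and 239 CPM in the anterior gate, and Mesp1 at 7.03 and 1.58 CPM in members and 167 and 78.3 CPM in the anterior gate. Both genes lay below the anterior gate in each library. The weakest adjusted p of these 10 genes was 0.00682, for Fgf17. Mesp1 and Pcdh8 are known to be expressed with Mesp2, which drew the anterior gate and was limited in the members, so their difference is not independent of the gates.

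Relative to somites, the 5 largest increases were Fgf3 (5.18 ± 0.48), Mixl1 (5.04 ± 0.37), the Wnt ligand Wnt3a (4.75 ± 0.37), Fgf17 (4.10 ± 0.36) and Hes7 (3.91 ± 0.14). The 5 largest decreases included the forkhead gene Foxd2 (-5.37 ± 0.24), Cer1 (-5.13 ± 0.15), the somite homeobox gene Meox2 (-5.06 ± 0.24) and the T-box gene Tbx18 (-5.00 ± 0.33). Meox2 stood at 1.22 and 1.35 CPM in members, against 40.5 and 55.0 CPM in somites, and Tbx18 at 0.469 and 0.826 CPM in members and 22.2 and 25.5 CPM in somites. Both were under 2 CPM in members of each library. Tcf15 and Meox1 drew the somite gate, so genes expressed with them are not independent of it. The weakest adjusted p of the genes named here was 1.97e-04, for Fgf3.

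**Figure D2:**
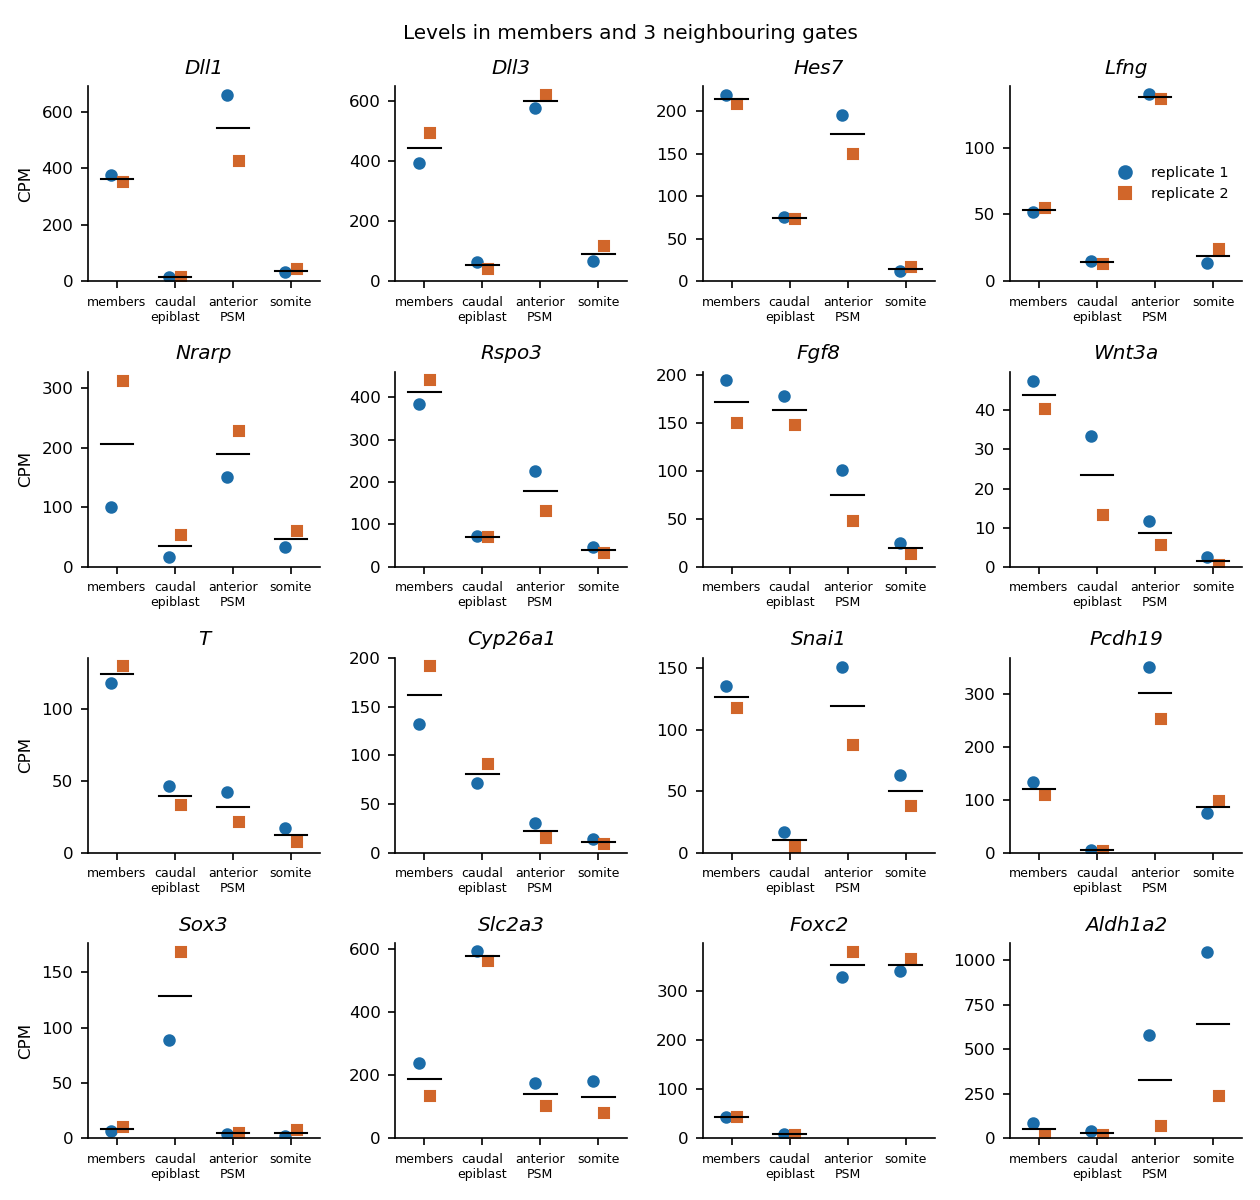
CPM of 16 genes in members, the caudal epiblast gate, the anterior presomitic mesoderm (PSM) gate and the somite gate, with a circle for replicate 1, a square for replicate 2 and a line at their mean. Dll1 stood at 374 and 352 CPM in members, against 13.8 and 13 CPM in caudal epiblast, and Foxc2 at 44.4 and 42.7 CPM in members, against 329 and 379.6 CPM in the anterior gate.

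Notch ligands and modifiers were among the genes that set the members off from caudal epiblast. Of 8 ligands and receptors tested, 4 were higher and 3 lower than in other barcodes (median 0.34), 3 were higher and 0 lower than in caudal epiblast, and 0 were higher and 2 lower than in the anterior gate. The receptor Notch1 stood at 58.7 and 82.2 CPM in members, 15.8 and 29.4 CPM in caudal epiblast and 131 and 235 CPM in the anterior gate, with a log2 fold change of 1.69 ± 0.18 over caudal epiblast and of -1.33 ± 0.19 over the anterior gate. The receptor Notch2 was called lower than in the anterior gate, at 17.4 and 27.1 CPM in members and 44.6 and 65.6 CPM there (-1.31 ± 0.14). Dll1 and Dll3 missed the threshold against the anterior gate, at -0.57 with adjusted p 0.115 and -0.45 with adjusted p 0.418, but with no filter on low counts the adjusted p was 2.80e-06 for Dll1 and 0.00942 for Dll3, and with a gate threshold of 2 UMIs it was 0.0386 for Dll1. Dll1 stood at 374 and 352 CPM in members and 659 and 425 CPM in the anterior gate, where the libraries differed more between themselves.

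Of 14 Notch modifiers and targets, 4 were higher and 2 lower than in other barcodes, 6 higher and 1 lower than in caudal epiblast, and 0 higher and 1 lower than in the anterior gate. Hes7, a repressor that drives the clock, stood at 219 and 209 CPM in members, 75.1 and 73.1 CPM in caudal epiblast, 196 and 149 CPM in the anterior gate and 12.0 and 16.2 CPM in somites (1.52 ± 0.11 over caudal epiblast). Lfng, a sugar transferase that modifies Notch, stood at 52.0 and 54.7 CPM in members, 15.0 and 13.1 CPM in caudal epiblast and 140.0 and 136 CPM in the anterior gate, a log2 fold change of 1.88 ± 0.17 and of -1.38 ± 0.17. Lfng lay between its neighbours in both libraries, and it was the modifier called lower than in the anterior gate. Nrarp, a feedback inhibitor of Notch, stood at 101 and 312 CPM in members and 16.1 and 53.6 CPM in caudal epiblast (2.59 ± 0.24). Its level was higher in replicate 2 in every class shown, and in each library members lay above caudal epiblast. Rbpj stood at 32.1 and 40.3 CPM in members, 33.5 and 42.4 CPM in caudal epiblast and 42.8 and 49.7 CPM in the anterior gate, and was called in neither direction in any of the 4 comparisons. In members thinned to 8000 UMIs, Lfng was detected in 27.6% and 32.2%, against 2.89% and 6.74% of endothelial barcodes.

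FGF ligands were mostly high in members. Of 9 tested, 6 were higher and 2 lower than in other barcodes (median 1.05). Of the 8 tested in the axis fit, 4 were higher than in caudal epiblast and 0 lower, 4 were higher than in the anterior gate and 1 lower, and 6 were higher than in somites and 1 lower. Fgf4 stood at 29.2 and 10.1 CPM in members and 1.63 and 0.137 CPM in caudal epiblast (4.26 ± 0.30), and Fgf3 at 64.5 and 59.3 CPM in members and 6.40 and 1.16 CPM in caudal epiblast (3.90 ± 0.35). Fgf8, the main tail-end ligand, stood at 194 and 149.6 CPM in members and 178 and 148 CPM in caudal epiblast, a log2 fold change of 0.069 that was not called (adjusted p 0.80), but at 101 and 47.7 CPM in the anterior gate (1.22 ± 0.17) and 24.8 and 13.5 CPM in somites (3.15 ± 0.17). Fgf18 was the ligand called lower than in the anterior gate, at 1.83 and 2.70 CPM in members and 26.7 and 35.0 CPM in the anterior gate.

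Of 16 FGF receptors and targets, 4 were higher and 2 lower than in caudal epiblast, and 3 higher and 1 lower than in the anterior gate. The feedback phosphatase Dusp4 stood at 150.2 and 149.9 CPM in members, 94.4 and 80.2 CPM in caudal epiblast and 78.9 and 55.3 CPM in the anterior gate (0.77 ± 0.15 and 1.15 ± 0.18). The feedback inhibitor Spry4 gave 0.55 ± 0.13 and 1.14 ± 0.19 in the same comparisons, the first not called by DESeq2 (adjusted p 0.0716) or with a gate threshold of 2 UMIs (0.0911). Fgfr1, the receptor of the paraxial mesoderm, was called lower than in the anterior gate, at 87.2 and 79.0 CPM in members and 142 and 119 CPM there (-0.66 ± 0.076). Etv4, an ETS factor downstream of FGF, stood at 98.0 and 82.8 CPM in members and 172 and 84.3 CPM in caudal epiblast, where replicate 1 was high, and was not called.

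Of 8 Wnt ligands, 3 were higher and 1 lower than in caudal epiblast, and 3 higher and 0 lower than in the anterior gate. Against somites 4 were higher and 0 lower, but against other barcodes 3 were higher and 4 lower (median -0.40). Wnt3a stood at 47.5 and 40.3 CPM in members, 33.5 and 13.4 CPM in caudal epiblast and 11.7 and 5.57 CPM in the anterior gate, with a log2 fold change of 0.98 ± 0.23 and of 2.38 ± 0.37. With a gate threshold of 2 UMIs the first was not called (adjusted p 0.0580). Wnt8a was the ligand called lower, at 4.36 and 1.65 CPM in members and 37.0 and 4.38 CPM in caudal epiblast (-2.56 ± 0.34). Wnt5b, a noncanonical ligand, was called higher than in both neighbours (0.51 ± 0.14 and 1.73 ± 0.20), the first not by DESeq2 (adjusted p 0.0726), with a gate threshold of 6 UMIs (0.0521) or with no lower mitochondrial limit (0.0941). Wnt5a was not called against either, at 141 and 156 CPM in members, 61.4 and 131 CPM in caudal epiblast and 92.1 and 84.3 CPM in the anterior gate. Among 22 modulators, effectors and targets, 8 were higher and 5 lower than in caudal epiblast, 8 higher and 3 lower than in the anterior gate, and 9 higher and 7 lower than in other barcodes. Dkk1, a secreted inhibitor, stood at 54.3 and 131 CPM in members and 8.12 and 3.08 CPM in caudal epiblast (3.82 ± 0.52). Lef1, a DNA-binding effector, stood at 285 and 356 CPM in members and 98.5 and 106 CPM in caudal epiblast (1.62 ± 0.16). Axin2, a general Wnt target, stood at 60.4 and 83.5 CPM in members and 37.6 and 29.0 CPM in the anterior gate (1.08 ± 0.20). Dkk1, Lef1 and Axin2 were each higher in members in both libraries. The effector Tcf7l2 moved the other way, at 7.69 and 12.9 CPM in members and 22.3 and 36.6 CPM in the anterior gate (-1.51 ± 0.16).

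Of the retinoic acid enzymes, Cyp26a1 was high in members relative to the anterior gate and Aldh1a2 low relative to the anterior gate and somites. Cyp26a1 stood at 132 and 191 CPM in members, 71.3 and 90.6 CPM in caudal epiblast and 30.0 and 15.1 CPM in the anterior gate (0.99 ± 0.21 over caudal epiblast, where DESeq2 gave an adjusted p of 0.263). Aldh1a2, which makes retinoic acid, stood at 84.4 and 15.1 CPM in members, 580.4 and 70.4 CPM in the anterior gate and 1042 and 239.8 CPM in somites (-2.62 ± 0.29 and -3.78 ± 0.28). Its level was several times higher in replicate 1 in each of these classes, and the direction held in both libraries. In caudal epiblast it stood at 41.5 and 16.9 CPM, so that members were higher in replicate 1 and lower in replicate 2, and it was not called (0.58 ± 0.30, adjusted p 0.239), though with no filter on low counts it was (adjusted p 0.00113). Of 14 genes of the pathway tested, 3 were higher and 3 lower than in caudal epiblast, 2 higher and 2 lower than in the anterior gate, and 4 higher and 4 lower than in somites. The receptor Rarb was low in members, at 4.88 and 2.03 CPM, against 11.9 and 4.52 CPM in caudal epiblast and 17.9 and 3.58 CPM in the anterior gate (-1.22 ± 0.22 and -1.57 ± 0.28). The receptor Rarg was called higher than in the anterior gate, at 75.7 and 74.3 CPM in members and 31.8 and 25 CPM there (1.38 ± 0.11), and gave -0.19 and adjusted p 0.144 against caudal epiblast.

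Genes of segment boundary and somite were low in members relative to the gates in front. Of 18 tested, against the anterior gate 13 were lower and 0 higher (median -2.31), against somites 15 lower and 1 higher (median -2.90), and against caudal epiblast 8 higher and 1 lower (median 0.79). The gates in front were drawn on segment and somite genes, and Mesp2 and Ripply2 were limited in the members. The lower levels of genes expressed with these are therefore not independent of the gates. Foxc1 and Foxc2 are forkhead factors needed for paraxial mesoderm. Foxc2 stood at 44.4 and 42.7 CPM in members, 8.69 and 7.33 CPM in caudal epiblast and 329 and 379.6 CPM in the anterior gate (2.38 ± 0.10 and -3.02 ± 0.090). Foxc1 gave 3.70 ± 0.26 and -1.70 ± 0.22 in the same comparisons. Both genes lay between the neighbouring gates in both libraries. Epha4, an Eph receptor used at segment boundaries, stood at 69.2 and 89.1 CPM in members and 31.6 and 39.7 CPM in caudal epiblast (1.14 ± 0.11), but at 62.9 and 87.5 CPM in the anterior gate, where it was not called. Pax3 was the gene called lower than in caudal epiblast, at 8.49 and 9.24 CPM in members and 31.7 and 35.7 CPM there (-1.91 ± 0.11).

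**Figure D3:**
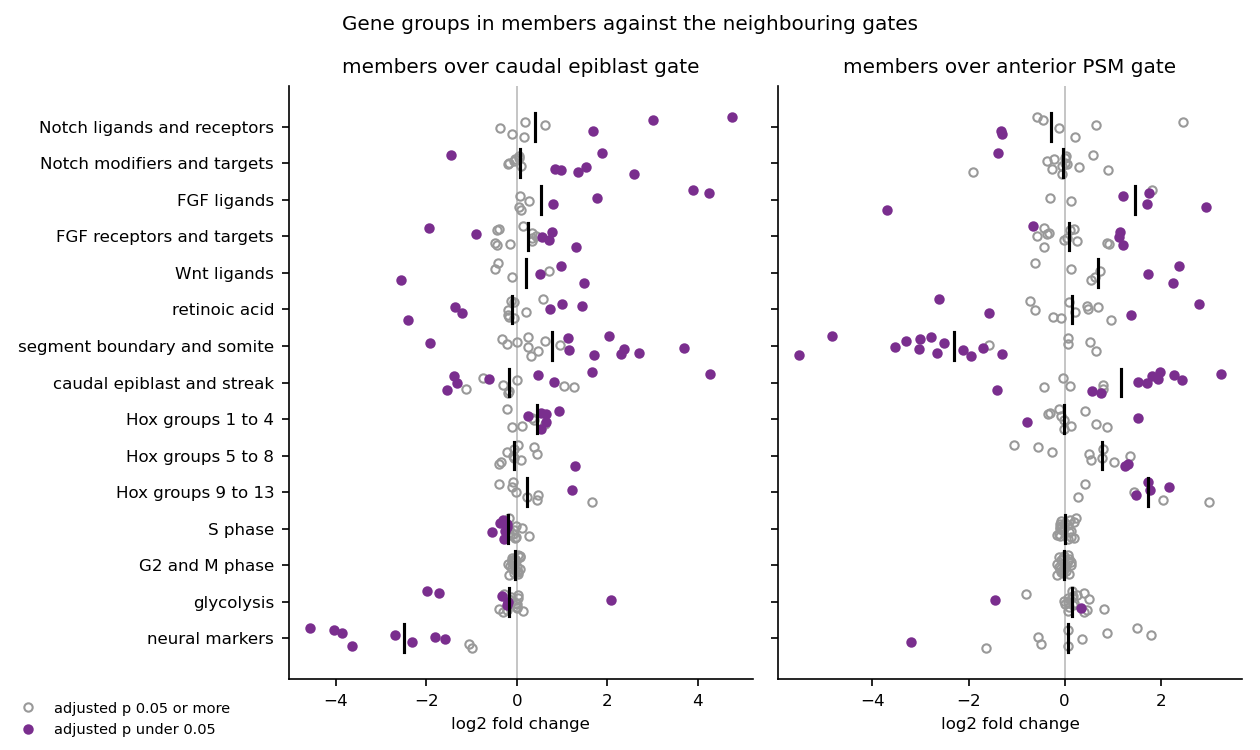
Log2 fold change of each gene in 15 groups, members over the caudal epiblast gate on the left and over the anterior presomitic mesoderm gate on the right; filled circles had an adjusted p under 0.05, open circles did not, and black bars are group medians. Segment boundary and somite genes have a median of 0.79 on the left and -2.31 on the right.

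Of 16 genes of caudal epiblast and streak, 4 were higher and 4 lower than in caudal epiblast, and 10 higher and 1 lower than in the anterior gate (median 1.16). T (Brachyury), a T-box factor of streak and notochord, stood at 119 and 130.0 CPM in members, 46.1 and 33.4 CPM in caudal epiblast, 42.0 and 21.5 CPM in the anterior gate and 17.4 and 7.59 CPM in somites (1.66 ± 0.21 over caudal epiblast). The members were the highest of the 4 classes in each library. Epha5, an Eph receptor of caudal epiblast, moved otherwise, at 85.0 and 94.8 CPM in members, 249 and 218 CPM in caudal epiblast and 29.6 and 20.7 CPM in the anterior gate (-1.38 ± 0.12 and 1.82 ± 0.18). Cdx2, a caudal homeobox factor, likewise lay between, with -0.62 ± 0.13 and 1.94 ± 0.17. Cdx4, a related factor, was not called against caudal epiblast, at 335 and 363 CPM in members and 318 and 376 CPM there. Pou3f1 was the gene called lower than in the anterior gate, at 3.56 and 2.63 CPM in members and 11.0 and 5.96 CPM there.

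Of the adhesion and matrix genes that passed the test, most were higher than in caudal epiblast and most lower than in other barcodes. Of 19 genes of the epithelial to mesenchymal switch and adhesion, 7 were higher and 1 lower than in caudal epiblast, but 6 were higher and 11 lower than in other barcodes (median -0.60). Against the anterior gate 1 was higher and 4 lower, and against somites 4 and 4. Snai1, a repressor that drives the switch, stood at 135 and 117 CPM in members, 16.8 and 4.38 CPM in caudal epiblast and 151 and 87.5 CPM in the anterior gate (3.56 ± 0.28 over caudal epiblast, 0.13 with adjusted p 0.866 over the anterior gate). Fibronectin (Fn1) stood at 552 and 699 CPM in members and 152 and 187 CPM in caudal epiblast (1.87 ± 0.055), and its integrin receptor subunit Itga5 at 43.1 and 54.5 CPM in members and 20.4 and 19.6 CPM in caudal epiblast (1.25 ± 0.11). Itga6, a laminin receptor subunit, was the gene called lower, at 20.4 and 17.7 CPM in members and 54.8 and 54.2 CPM in caudal epiblast (-1.51 ± 0.12). N-cadherin (Cdh2) stood at 145 and 173 CPM in members and 126 and 178 CPM in caudal epiblast and was not called. Of 17 matrix genes, 6 were higher and 1 lower than in caudal epiblast, among them the laminin chain Lama1 (2.04 ± 0.19). Against other barcodes 4 of 17 matrix genes were higher and 12 lower. Among 14 migration genes, 3 were higher and 5 lower than in caudal epiblast, and 3 higher and 7 lower than in other barcodes. The PDGF receptor Pdgfra stood at 58.3 and 58.1 CPM in members and 15.4 and 17.2 CPM in caudal epiblast (1.83 ± 0.13), while its ligand Pdgfa stood at 30.4 and 27.5 CPM in members and 86.0 and 94.4 CPM in caudal epiblast (-1.63 ± 0.089). Receptor and ligand moved in opposite directions in both libraries.

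Among 20 genes of BMP signalling, 4 stood higher and 11 lower than in other barcodes, 6 higher and 1 lower than in caudal epiblast, and 2 higher and 0 lower than in the anterior gate. Msx1 and Gdf11 were the pair called higher than in the anterior gate. Msx1, a homeobox target of BMP, stood at 204 and 136 CPM in members and 97.2 and 54.1 CPM in the anterior gate (1.18 ± 0.11). Gdf11, a ligand for trunk and tail patterning, stood at 25.3 and 54.0 CPM in members and 15.0 and 16.3 CPM in the anterior gate (1.26 ± 0.21). Nog, a BMP antagonist, was the gene called lower than in caudal epiblast, at 3.0 and 0.976 CPM in members and 8.54 and 6.03 CPM there.

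Hox genes give position along the axis and are described by paralogue group, with no test between the groups. Of 12 genes of groups 1 to 4, 11 were higher and 0 lower than in other barcodes (median 0.79), 6 higher and 0 lower than in caudal epiblast, 1 higher and 1 lower than in the anterior gate and 8 higher and 2 lower than in somites. Hoxb1 stood at 187 and 214 CPM in members, 87.4 and 125 CPM in caudal epiblast, 148 and 149 CPM in the anterior gate and 53.8 and 48.4 CPM in somites (0.93 ± 0.12 over caudal epiblast and 1.94 ± 0.13 over somites). Of 9 genes of groups 9 to 13 in the axis fit, 4 were higher and 0 lower than in the anterior gate (median 1.74) and 5 higher and 0 lower than in somites, with 1 higher and 0 lower than in caudal epiblast. Against other barcodes 3 of 12 genes of groups 9 to 13 were higher and 4 lower (median -0.36). Hoxa9 stood at 64.5 and 183 CPM in members, 21.9 and 50.1 CPM in the anterior gate and 11.9 and 23.8 CPM in somites (1.74 ± 0.14 and 2.70 ± 0.13). Hoxc9 gave 2.17 ± 0.19 over the anterior gate. Its level was 24.0 and 129 CPM in members and 6.58 and 25.8 CPM in the anterior gate, higher in replicate 2 in both. Of 11 genes of groups 5 to 8, 1 was higher than in caudal epiblast and 2 higher than in the anterior gate, with 0 lower in either, and 4 were higher and 1 lower than in somites and 5 higher and 0 lower than in other barcodes. Hoxd8 was called in both, at 20.9 and 65.6 CPM in members, 7.36 and 30.6 CPM in caudal epiblast and 10.2 and 25.8 CPM in the anterior gate.

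Of 20 S-phase genes, 10 were lower and 0 higher than in caudal epiblast, with a median of -0.20. In the other comparisons 0 were called against the anterior gate, 1 was higher against somites, and 2 higher and 1 lower against other barcodes. Of 20 G2 and M phase genes, 0 were called against caudal epiblast or the anterior gate, 1 was lower than in somites and 3 were higher than in other barcodes. Ung, a uracil glycosylase, showed the largest of the S-phase changes against caudal epiblast, at 65.8 and 67.7 CPM in members and 92.6 and 102 CPM in caudal epiblast (-0.54 ± 0.059). The cyclins Ccnd1 and Ccnd2 were called lower than in caudal epiblast (-0.51 ± 0.12 and -0.43 ± 0.12), Ccnd2 not when Scrublet-marked barcodes were removed (adjusted p 0.0678) or when the gate used thinned barcodes (0.0632). Of 20 glycolysis genes, 1 was higher and 5 lower than in caudal epiblast. In the other comparisons 10 were higher and 1 lower than in somites, 8 higher and 4 lower than in other barcodes, and 1 was higher and 1 lower than in the anterior gate. In T-high members 10 were higher and 2 lower than in T-negative members. Against caudal epiblast the glucose transporters Slc2a1 and Slc2a3 fell most. Slc2a1 stood at 544 and 201 CPM in members and 1758 and 978 CPM in caudal epiblast (-1.98 ± 0.11), and Slc2a3 at 238 and 135 CPM in members and 592 and 562 CPM in caudal epiblast (-1.71 ± 0.20). Aldoc, an aldolase, was the gene called higher, at 30.5 and 11.0 CPM in members and 5.43 and 4.04 CPM in caudal epiblast (2.09 ± 0.25). Pkm, the pyruvate kinase gene, was among the abundant genes not called, at 3411 and 3822 CPM in members and 3530 and 3641 CPM in caudal epiblast. Against the anterior gate Ldha, the lactate dehydrogenase gene, was called higher (0.35 ± 0.044) and Aldoc lower (-1.45 ± 0.25).

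Members differed among themselves. Variation was measured as the variance over the mean of UMIs per cell after thinning to 8000 UMIs, over 5162 genes with a mean of at least 0.2 UMIs, for which the median was 1.05 and 1.04 and the 95th percentile 1.41 and 1.34. By the lower of the libraries' values, the 10 highest genes were Gm42418, Mest, Gm26917, Krt18, Tcf15, Slc2a3, Cyp26a1, Ube2c, Tmsb10 and Krt8. Mest, an imprinted gene of mesoderm, had 11.8 and 10.4. Tcf15, the somite factor used in the somite gate, had 4.59 and 4.29, and Cyp26a1 4.68 and 4.10. Gm42418 and Gm26917 are known to overlap ribosomal RNA sequence, and Krt8 and Krt18, simple epithelial keratins, are also markers of surface ectoderm. Dll3 stood at rank 22 with 2.85 and 3.04, Dll1 had 3.20 and 2.46 and Hes7 2.74 and 2.47. The 10 genes were chosen as the highest, so their place above the 95th percentile follows from the choice. Dll3, Dll1 and Hes7 also lay above it in both libraries. The percentiles were not matched on the mean, and this ratio can rise with it. Gm42418, with means of 58.4 and 61.6 UMIs, was thus set against genes of all means.

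**Figure D4:**
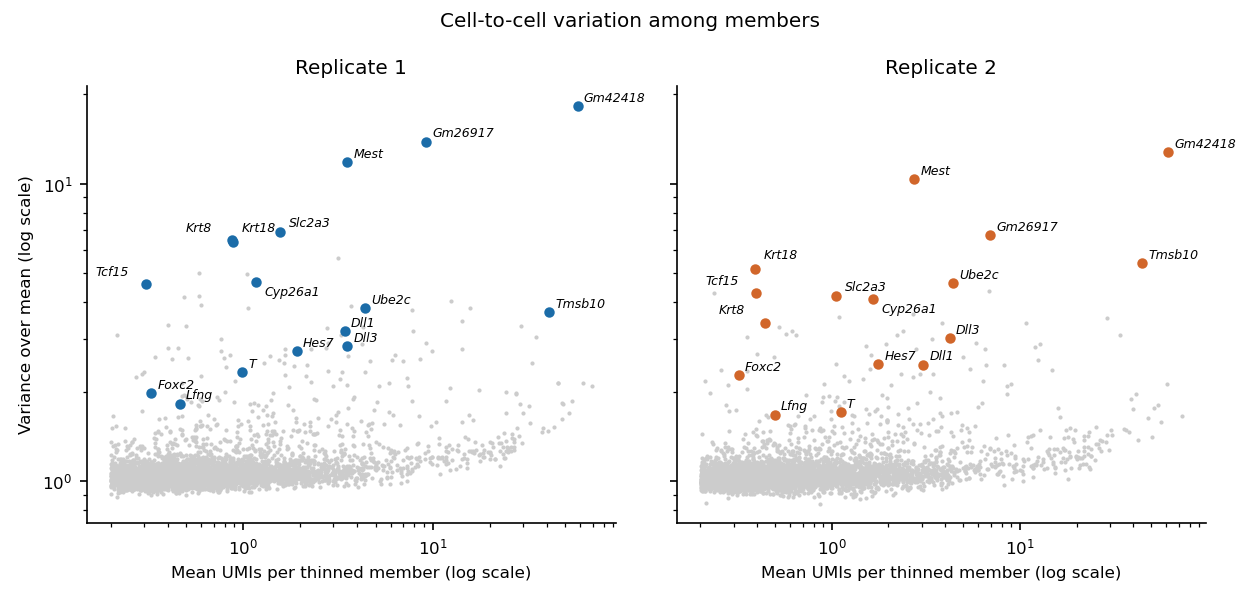
Variance over mean against mean UMIs per thinned member (both axes log scale) for 5162 genes in each library, grey points, with named genes coloured. Mest, Tcf15 and Cyp26a1 stand above the bulk of genes in both libraries, with 4.68 and 4.10 for Cyp26a1.

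T, which the gate did not use, was detected in 47.1% and 58.4% of thinned members, against 7.40% and 3.37% of endothelial barcodes, and its UMIs were used to split the members. T-high members (at least 2 T UMIs after thinning) numbered 264 and 231, members with 1 T UMI 256 and 252, and T-negative members 583 and 344. The counts summed for each class were not thinned. In these sums T stood at 331 and 303 CPM in T-high members and 122 and 113 CPM in members with 1 T UMI. T-negative members still held T at 31.6 and 34.7 CPM, so they were not all without T. Of 11374 genes tested, 617 (5.42%) were higher and 497 (4.37%) lower in T-high members than in T-negative members, of which 165 and 142 changed at least 2-fold. The calls depend on the model: without library as a term edgeR called 0 higher and 0 lower, with 496 genes at an unadjusted p under 0.05, and DESeq2 called 88 higher and 56 lower. Of the genes called, 19 differed in sign between the libraries. T-high members had a median of 15880 and 14439 UMIs and T-negative members 17370 and 15075.5.

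The 5 largest increases in T-high members were Nefm, a neurofilament gene (2.17 ± 0.17), Cyp26a1 (2.06 ± 0.061), Cldn9, a claudin (2.03 ± 0.16), Mixl1 (1.97 ± 0.13) and Fgf17 (1.86 ± 0.077). Cyp26a1 stood at 322 and 351 CPM in T-high members, against 59.3 and 111 CPM in T-negative members, and Fgf17 at 158 and 207 CPM in T-high members and 35.4 and 69.5 CPM in T-negative members. The groups did not overlap for either gene, both chosen for their large changes. Within the libraries the log2 fold changes of Cyp26a1 were 2.43 and 1.66, further apart than its SE of 0.061 would imply. The 5 largest decreases were Foxc2 (-2.36 ± 0.14), Aldh1a2 (-2.33 ± 0.13), the homeobox genes Meis1 (-2.15 ± 0.22) and Prrx2 (-2.10 ± 0.20), and Twist1, a basic helix-loop-helix factor of mesenchyme (-1.99 ± 0.15). Foxc2 stood at 11.4 and 13.1 CPM in T-high members, against 64.5 and 62.6 CPM in T-negative members, and Aldh1a2 at 24.8 and 3.99 CPM in T-high members and 121 and 25.7 CPM in T-negative members. For Aldh1a2 the T-high members of replicate 1 lay just under the T-negative members of replicate 2, and within each library T-high members were lower. The weakest adjusted p of the 10 genes was 1.04e-20, for Meis1.

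Members with 1 T UMI lay between the other classes for Cyp26a1 and Foxc2 in each library. From 0 through 1 to 2 or more T UMIs, Cyp26a1 had 59.3 and 111, then 124 and 169, then 322 and 351 CPM. Over the same steps Foxc2 had 64.5 and 62.6, then 30.6 and 41, then 11.4 and 13.1 CPM. The rule genes of the gate moved less: Msgn1 stood at 485 and 489 CPM in T-high members and 297 and 349 CPM in T-negative members, and Tbx6 at 256 and 274 CPM in T-high members and 219 and 239 CPM in T-negative members. Dll3 was not called, at 0.0088 with adjusted p 0.955.

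**Figure D5:**
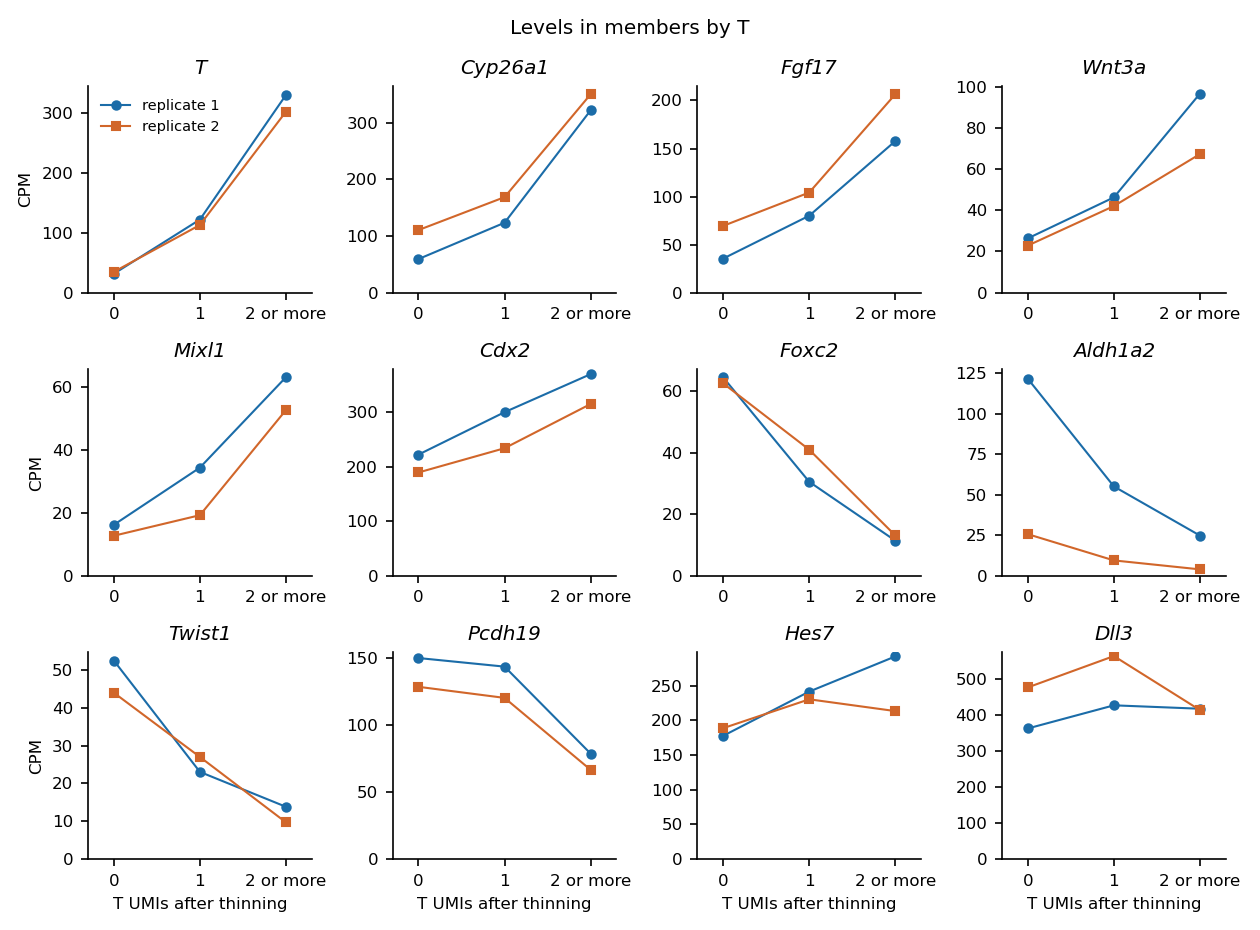
CPM of 12 genes in members with 0, 1 or at least 2 T UMIs after thinning, a line per library. Cyp26a1 and Fgf17 climb and Foxc2 and Aldh1a2 drop over the steps in both libraries, while Dll3 shows no common order.

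By group, 11 of 14 genes of caudal epiblast and streak were higher and 0 lower in T-high members (median 0.61), as were 5 of 8 FGF ligands, with 1 lower, and 5 of 8 Wnt ligands, with 0 lower. Wnt3a stood at 96.7 and 67.3 CPM in T-high members and 26.4 and 22.9 CPM in T-negative members (1.74 ± 0.11), and Fgf8 at 329 and 232 CPM in T-high members and 138 and 102 CPM in T-negative members (1.23 ± 0.060). Fgf9 was the ligand called lower (-0.71 ± 0.23), though not without Scrublet-marked members (adjusted p 0.0512). Of 12 segment boundary and somite genes tested, 9 were lower and 0 higher (median -1.51). Of 17 matrix genes 3 were higher and 10 lower, among them the collagen Col3a1 (-3.44 ± 0.42). Of 13 Notch modifiers and targets 4 were higher, Hes7 among them (0.48 ± 0.057), and 0 lower. DESeq2 did not call Hes7 or Fgf9 at an adjusted p under 0.05.

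Markers of other tissues moved with the T split. Summed notochord markers stood at 46.8 and 16.8 CPM in T-high members, against 7.59 and 5.32 CPM in T-negative members, with Noto and Foxj1 at 0 in T-negative members of replicate 1. Of 4 notochord markers tested, 4 were higher. Summed blood markers stood at 1.29 and 54.2 CPM in T-high members, against 16.3 and 2946 CPM in T-negative members, and 5 of 5 tested were lower. Hba-x, Hbb-bh1 and Hbb-y had 0 UMIs in both classes of replicate 1, so their calls rest on replicate 2. A single T-negative member of replicate 2 held 5991 blood marker UMIs, and a single T-negative member of replicate 1 held 148. Summed lateral plate markers stood at 125 and 83.6 CPM in T-high members, against 262 and 182 CPM in T-negative members, and 6 of 8 were lower. Without members that held at least 4 notochord or blood UMIs (12 and 8 T-high, 8 and 10 T-negative), a choice made after the data were seen, 563 genes were higher and 485 lower. Without Scrublet-marked members, also chosen then, 467 were higher and 383 lower. The part of lateral plate transcripts in the result was not tested.

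Lfng averaged 0.730 and 0.678 UMIs per thinned member with at least 2 Hes7 UMIs, against 0.198 and 0.306 in members without Hes7, a ratio of 3.70 and 2.22. The split set 486 and 339 members against 344 and 271. Nrarp gave ratios of 2.14 and 1.77. Over 7106 genes with a mean of at least 0.1 UMIs per thinned member, the median ratio was 1.01 and 1.00, and 1.58% and 1.07% of genes exceeded 1.5. Ratios above 1 were not limited to Notch targets: the ligand Dll1 gave 1.79 and 1.39, the gate gene Tbx6 1.72 and 1.26 and T 1.72 and 1.23. Hes5, another Notch target, gave 2.71 and 1.56, and the receptor Notch1 1.59 and 1.31. Hes1, also a Notch target, gave 0.985 and 0.862, and Axin2 0.818 and 0.781. Snai1 (1.37 and 0.889) and Dkk1 (1.15 and 0.858) lay on opposite sides of 1 in the libraries. The 18 genes looked at were chosen by hand, and no test was made across members.

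The libraries differed within the members in genes that mostly differed alike elsewhere. Of 3539 genes with at least 50 CPM in 1 library, 71 differed more than 2-fold between the members of the libraries. Of these, 70 differed in the same direction in other barcodes. Dkk1 was the exception, at 54.3 and 131 CPM in members and 23.1 and 17.8 CPM in other barcodes. Xist, the RNA of the inactive X chromosome, stood at 143 CPM in members of replicate 1 and 0.0751 CPM in members of replicate 2. In other kept barcodes Xist stood at 122 and 0.261 CPM. Within members the embryonic haemoglobin gene Hba-x stood at 0.0469 and 934 CPM. Cdx1, a caudal homeobox gene, stood at 224 and 37.8 CPM and Hoxc10 at 2.16 and 56.6 CPM.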

How the data were processed

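The deposited values were raw UMI counts per gene and barcode, made with Cell Ranger 6.1.1 on mm10, per the submitters' processing notes. Barcodes were filtered and gated as the report states. For each library the counts of a class were added up and the sums tested with edgeR 4.0.16 (quasi-likelihood, TMM normalization, filterByExpr, prior count 2, two-sided, Benjamini-Hochberg over all genes tested, threshold 0.05), and DESeq2 1.42.0 was an alternative. Both classes of a comparison come from the same libraries, which pairs the sums, so library was a block in the model. The 8 gate genes were left out of the tests, and T out of its own split. Named genes were the 10 largest changes each way against other barcodes and the 5 largest otherwise, with at least 20 CPM in both libraries of the higher class, plus examples from each gene list; a few genes that these rules name are not reported here. The members, rules and gene lists were chosen with earlier results of these data known. Scrublet ran in scanpy 1.11.5. The scripts were tested on simulated data. CPM are not scaled by gene length, so levels are compared between classes and not between genes.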

Additional observations from a re-analysis of the deposited data

Results flagged for a closer look

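An eGFP sequence is among the features of the deposited matrices although the labels give wild-type embryos, and it was used in no comparison. It was counted at 6.66 CPM in members of replicate 1 (exact 95% Poisson interval 5.61 to 7.85) and 6.91 CPM in members of replicate 2 (5.57 to 8.47), from 142 and 92 UMIs in 83 and 55 barcodes. Other kept barcodes held 4.51 and 3.43 CPM, and the endothelial gate 11.0 and 11.8 CPM. The source of these counts was not tested.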

How the results depend on the processing

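The library term mattered most to the calls. With no replicate block, 14 genes were higher and 2 lower against other barcodes, 123 and 105 against caudal epiblast, 4 and 21 against the anterior gate, 137 and 154 against somites, and 0 and 0 in the T split. DESeq2 called 699 higher and 1175 lower against other barcodes, 603 higher against caudal epiblast, and 88 higher and 56 lower in the T split. With no filter on low counts the anterior comparison gave 518 higher and 377 lower, so higher genes were 57.9% of the calls. Dll3 in the T split, not called, was at -0.016 with no filter, -0.012 with no replicate block, -0.00348 with DESeq2 and -0.070 without Scrublet-marked members. Snai1 against the anterior gate, not called, was at -0.025 with a threshold of 2 UMIs. The causes were not tested. The share of members was 8.35% and 8.30% at a threshold of 6 UMIs, 15.0% and 14.2% at 2 UMIs, 7.98% and 8.05% when gated on thinned barcodes, 11.6% in replicate 1 with at least 5000 UMIs, and 9.35% in replicate 2 with no lower mitochondrial limit. With RLE normalization, between 93.5% and 99.5% of the genes called in each comparison were called again in the same direction. Limiting other barcodes to those with 0 Msgn1 and Tbx6 UMIs, a choice made after the data were seen, kept 93.6% of the genes. With 2 libraries, leaving out either leaves values without a test. Within replicate 1 alone and replicate 2 alone, the log2 fold changes that differed between the libraries against other barcodes were 1.72 and 2.91 for Btg2, -1.80 and -2.88 for Cldn4 and -2.10 and -3.83 for Nepn. Against caudal epiblast they were 2.70 and 5.36 for Dkk1, 3.28 and 5.53 for Fgf3, 4.03 and 5.22 for Fgf4, -4.68 and -2.91 for Fgfbp3, 3.16 and 4.91 for Foxc1, 3.88 and 5.37 for Mixl1, 4.71 and 6.56 for S1pr3 and 2.98 and 4.71 for Snai1, with 2.44 and 1.43 for Aldoc, 0.48 and 1.60 for Wnt3a and -3.07 and -1.32 for Wnt8a. Against the anterior gate they were 2.11 and 3.66 for Cyp26a1, 2.15 and 3.94 for Fgf17, -4.56 and -5.51 for Mesp1, -1.87 and -0.77 for Rarb and 2.20 and 3.66 for Sct, and against somites 4.14 and 5.95 for Wnt3a. Each of these had the same sign in both libraries.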
